A study of Mus musculus with 24 samples.

Results

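The genes of 10 factors that skeletal muscle secretes during exercise were followed in RNA from the left tibialis anterior of 24 mice: Il6, Il15, Fndc5, Metrnl, Bdnf, Fgf21, Gdf15, Cx3cl1, Lif and Fst. They were taken by name from a list of such factors and were 10 of the 55487 gene identifiers counted. All animals were wild-type C57BL/6J males aged 5 to 7 weeks with depilated lower limbs, 6 in each of 4 groups. The treated groups lay anesthetized for 20 min under 830 nm light (photobiomodulation therapy, PBMT) at 25 mW/cm2, a dose of 30 J/cm2, and their muscle was dissected 24 h later. Control animals were shaved and anesthetized for 20 min with no light and no sham light. Sedentary control and sedentary PBMT mice did not run, whereas fatigued control and fatigued PBMT mice ran on a treadmill to exhaustion and were killed at its end. Libraries were poly(A)-selected and directional. Sedentary and fatigued libraries formed 2 separate sequencing projects, so a difference between fatigued and sedentary muscle cannot be told apart from a difference between projects. How long each mouse ran is not in the labels, so the fatigued groups could not be compared at equal running times.

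Muscle fibers release peptides, called myokines, that act on the fiber itself, on neighbouring cells and on distant organs. Contraction is known to raise the transcripts of several of them, Il6 above all, and the proteins reach liver, fat, bone, brain and immune cells. Some, such as Gdf15 and Fgf21, are better known as signals of cellular stress, and others, such as Il15 and Cx3cl1, are also made by cells that lie between the fibers.

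Counts per library ran from 43271093 to 46904076 in sedentary control, from 46327516 to 52775844 in sedentary PBMT, from 56792327 to 68726155 in fatigued control and from 53122528 to 68566029 in fatigued PBMT mice. Levels are given in CPM, the usual unit of read counts scaled to a common library total. A gene was called too low to measure where the low-count filter of edgeR, run over the 24 mice, dropped it. Of the 10 members, 6 passed (Fndc5, Il15, Metrnl, Fst, Bdnf and Cx3cl1) and 4 did not (Il6, Lif, Gdf15 and Fgf21). At these depths a count of 0 allows, by counting error alone, a level of up to 3 counts, which is 0.0438 to 0.0658 CPM depending on the mouse. The tissue carried the markers of fast muscle: 7 fast fiber genes, led by Myh4, summed to between 100042 CPM in the lowest sedentary control mouse and 165650 CPM in the highest fatigued control mouse. Sedentary control mouse 4 and fatigued PBMT mouse 5 lay farthest from the rest of their groups, with root mean square log2 distances of 0.601 and 0.607, against 0.365 to 0.488 for the other 22 mice. Where a member or a list moved without these 2 mice, the value without them is given for the main results.

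Per kilobase of exon, Fndc5 was the most abundant member in each group, with a mean of 44.9 CPM per kb in sedentary control, 41.9 in sedentary PBMT, 39.5 in fatigued control and 41.8 in fatigued PBMT muscle. Il15 and Metrnl came next and changed places between the projects. In sedentary control muscle Il15 stood at 2.51 and Metrnl at 1.29 CPM per kb, with no overlap between their mice, and in sedentary PBMT muscle at 2.39 and 1.6, with overlap. In fatigued control muscle Metrnl stood at 2.03 and Il15 at 1.64 CPM per kb, and in fatigued PBMT muscle at 2.2 and 1.31, with overlapping mice in both groups. Fst (0.36 to 0.589 CPM per kb in the group means), Cx3cl1 (0.253 to 0.332) and Bdnf (0.196 to 0.241) followed in that order in each group. Cx3cl1 and Bdnf overlapped in each group, and Fst overlapped Cx3cl1 in each group except fatigued PBMT. Il6, Lif, Gdf15 and Fgf21 had group means between 0 and 0.0974 CPM per kb.

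Fndc5 (ENSMUSG00000001334, chr4:129136999-129144593, plus strand of GRCm38) encodes the membrane protein from which the myokine irisin is cleaved. Its lowest, median and highest levels were 113, 122 and 142 CPM in sedentary control mice and 86.0, 121 and 126 CPM in sedentary PBMT mice. They were 92.5, 111 and 118 CPM in fatigued control mice and 104, 115 and 130 CPM in fatigued PBMT mice. The 4 groups overlapped, and sedentary PBMT mouse 6, at 86.0 CPM, was the lowest of the 24.

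Il15 (ENSMUSG00000031712, chr8:82331632-82403222, minus strand) encodes a cytokine that sustains natural killer and memory T cells and is presented by its receptor Il15ra. Sedentary control mice held 4.17, 6.14 and 6.48 CPM as lowest, median and highest, and sedentary PBMT mice 3.98, 5.45 and 6.69 CPM. In fatigued control mice the values were 1.71, 3.68 and 5.42 CPM, and in fatigued PBMT mice 2.16, 2.84 and 4.24 CPM. The fatigued mice lay low: each of the 12 was below the median of the sedentary group with the same treatment, although the ranges still overlapped. Mouse 5 was the highest in both fatigued groups.

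Metrnl (ENSMUSG00000039208, chr11:121701544-121716306, plus strand) encodes meteorin-like, a secreted factor that acts on fat, on immune cells and on muscle repair. Its lowest, median and highest levels were 1.67, 2.00 and 2.77 CPM in sedentary control and 1.84, 2.55 and 3.09 CPM in sedentary PBMT mice. The same levels were 2.42, 2.94 and 5.00 CPM in fatigued control and 2.22, 3.01 and 6.72 CPM in fatigued PBMT mice. All 6 fatigued control mice were above the sedentary control median and 3 were above the highest sedentary control mouse, so the groups overlapped in part. Mouse 5 was again the highest in both fatigued groups, and without it the fatigued PBMT mean of 3.49 CPM (SD 1.62, n = 6) became 2.85 CPM (SD 0.368, n = 5).

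Fst (ENSMUSG00000021765, chr13:114452290-114458951, minus strand) encodes follistatin, which binds and blocks activins and myostatin. Lowest, median and highest levels were 1.18, 1.68 and 2.22 CPM in sedentary control mice and 1.16, 1.62 and 2.73 CPM in sedentary PBMT mice. Fatigued control mice held 1.14, 2.72 and 3.34 CPM, and fatigued PBMT mice 1.87, 2.13 and 5.86 CPM. Of the 6 fatigued control mice, 5 were above every sedentary control mouse, while fatigued control mouse 4, at 1.14 CPM, was below all of them. Without fatigued PBMT mouse 5, the fatigued PBMT mean of 2.7 CPM (SD 1.55, n = 6) became 2.07 CPM (SD 0.155, n = 5).

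Bdnf (ENSMUSG00000048482, chr2:109674700-109727007, plus strand) encodes brain-derived neurotrophic factor, the ligand of Ntrk2. Its mean was 1.35 CPM (SD 0.452, n = 6) in sedentary control, 1.22 (SD 0.404) in sedentary PBMT, 1.5 (SD 1.63) in fatigued control and 1.31 CPM (SD 0.786) in fatigued PBMT mice. Fatigued control mouse 5 held 4.80 CPM, apart from its group, whose median was 0.973 CPM. Cx3cl1 (ENSMUSG00000031778, chr8:94772009-94782427, plus strand) encodes fractalkine, a membrane-bound chemokine that draws cells bearing Cx3cr1. Its mean was 0.996 CPM (SD 0.262, n = 6) in sedentary control, 1.09 (SD 0.419) in sedentary PBMT, 1.31 (SD 0.589) in fatigued control and 0.997 CPM (SD 0.318) in fatigued PBMT mice. For both genes the 4 groups overlapped across most of their range.

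**Figure D1:**
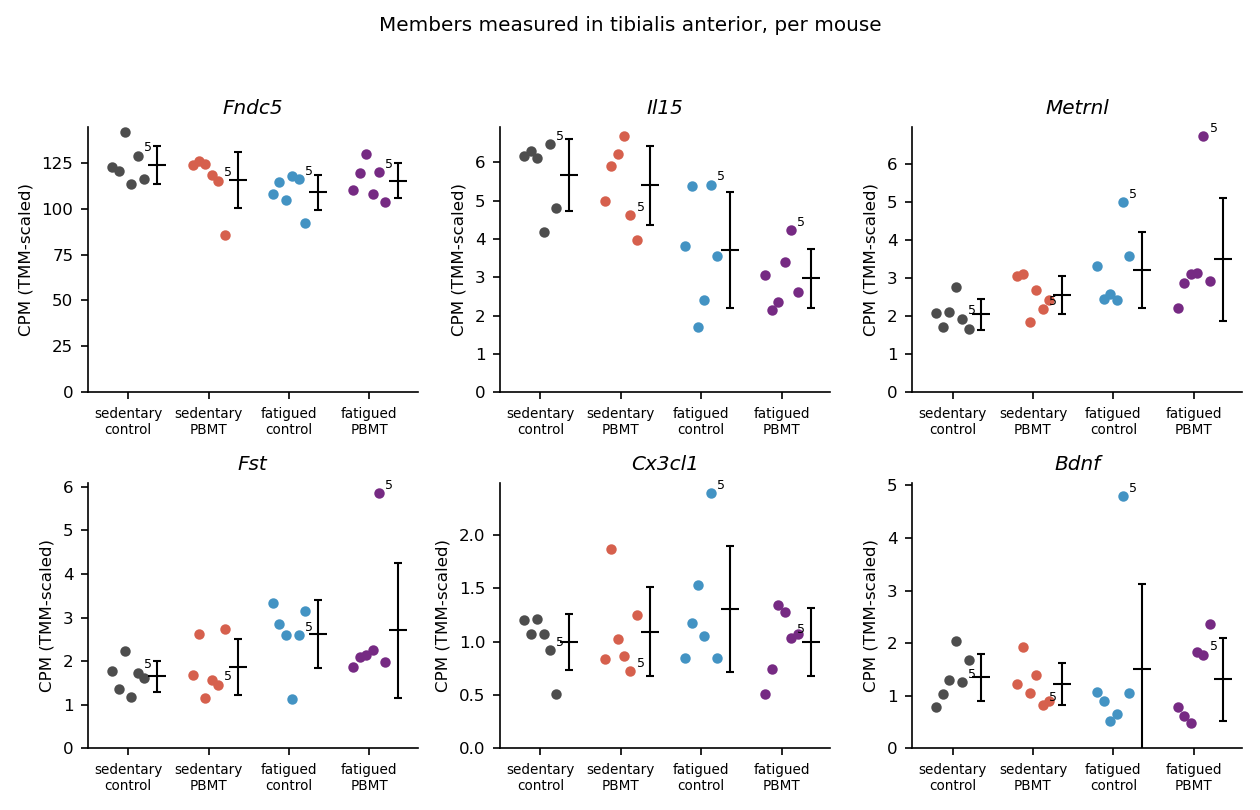
Level in CPM (vertical axis) of Fndc5, Il15, Metrnl, Fst, Cx3cl1 and Bdnf in each of 24 mice, 6 in each of the 4 groups along the horizontal axis, with the group mean and SD beside the points and mouse 5 of each group marked 5. Fatigued mice lie low for Il15, and mouse 5 is the highest fatigued PBMT mouse for Metrnl (6.72 CPM) and Fst (5.86 CPM).

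The 4 members too low to measure include Il6, the first myokine described, a cytokine that signals through Il6ra and Il6st to Stat3. Il6 (ENSMUSG00000025746, chr5:30013114-30019981, plus strand) had 128 counts over the 24 mice, and 12 mice had none. Group sums were 4 counts in sedentary control, 9 in sedentary PBMT, 23 in fatigued control and 92 in fatigued PBMT mice. Most of these counts came from mouse 5 of the fatigued groups, with 85 counts (1.3 CPM) in the PBMT group and 18 counts (0.293 CPM) in the control group, while the other 22 mice had 0 to 4. Without mouse 5 the fatigued PBMT mean of 0.237 CPM became 0.0246 CPM, below the floor of 3 counts.

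Lif (ENSMUSG00000034394, chr11:4257557-4272514, plus strand) encodes leukemia inhibitory factor, which shares the chain Il6st with Il6 and binds Lifr. It had 163 counts in all, with sums of 17 in sedentary control, 26 in sedentary PBMT, 49 in fatigued control and 71 in fatigued PBMT mice. Fatigued PBMT mouse 5 held 43 of these and fatigued control mouse 6 held 20. Without mouse 5 the fatigued PBMT mean of 0.185 CPM became 0.0906 CPM, beside 0.0873 CPM in sedentary PBMT mice. Gdf15 (ENSMUSG00000038508, chr8:70629393-70632456, minus strand), a hormone that lowers appetite through Gfral, had 44 counts in all and 0 to 8 in any mouse. Fgf21 (ENSMUSG00000030827, chr7:45613886-45615490, minus strand), a metabolic hormone that needs the co-receptor Klb, had 2 counts in all, 1 in fatigued control mouse 3 and 1 in fatigued PBMT mouse 5. Differences in Il6, Gdf15 and Fgf21 between most mice were therefore not detectable at this depth.

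**Figure D2:**
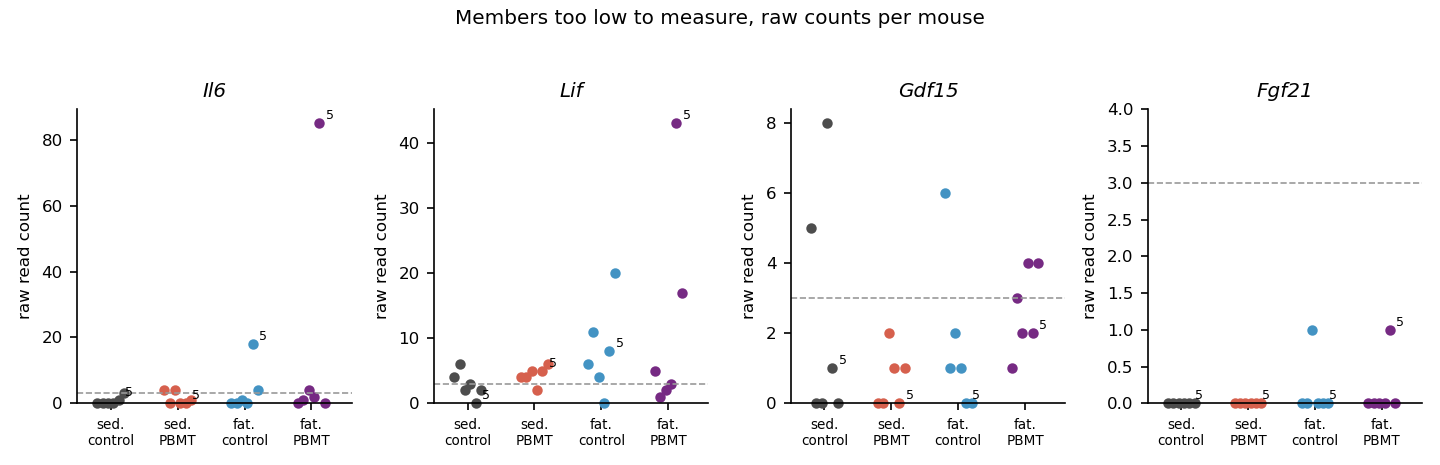
Raw read counts (vertical axis) of Il6, Lif, Gdf15 and Fgf21 in each of 24 mice by group, with a dashed line at 3 counts and mouse 5 of each group marked 5. Most mice lie near or under the line, and fatigued PBMT mouse 5 stands apart with 85 counts of Il6 and 43 of Lif.

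PBMT was compared with control in sedentary muscle to see what the light left in resting tissue 24 h later. The levels of the 6 measured members overlapped fully or in large part, and none passed the test. By edgeR, 0 of the 6 members and 0.0282% of all 14177 genes tested (4 genes) passed an adjusted p of 0.05, and DESeq2 also called 0 members. At an unadjusted p under 0.05 the members again numbered 0, or 1 without the 2 farthest mice, against 1082 of all genes, and the median log2 fold change over all genes was -0.00. Metrnl had the smallest p of the 6, with 5 of 6 PBMT mice above the control median, a log2 fold change of 0.32 (SE 0.164), an adjusted p of 0.661 and an exact permutation p of 0.0823. Groups without overlap were seen in 0 of the 6 tested members and in 0.48% of the genes tested. The 4 genes that passed were named after their values were seen, apart from Egr1, which is on the list of early exercise-response genes: Ccn1 rose by a log2 fold change of 1.14 (adjusted p = 0.000384), Egr1 by 2.98 (0.0139) and Cited2 by 0.66 (0.0183), and Nfil3 fell by 0.96 (0.000925). On that list of 21 genes, 4 were higher and 4 lower at an unadjusted p under 0.05 by edgeR, and Egr1 alone was called. With all 24 mice in the fit the adjusted p was 0.118 for Ccn1, 0.118 for Egr1 and 0.332 for Cited2. The Egr1 call was also lost with no filter (0.0513), with mouse number as a block and length and GC offsets (0.187), without the 2 farthest mice (0.0616) and without control mouse 1, 2, 4, 5 or 6 (0.0552 to 0.0820), and the Cited2 call without control mouse 1, 2, 3 or 6 or PBMT mouse 1, 3 or 6 (0.0552 to 0.0929).

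In fatigued muscle, the same comparison asked whether light given the day before changed the state of muscle at exhaustion. The 6 members again overlapped between PBMT and control mice. By edgeR, 0 of the 6 members and 0% of the 14574 genes tested passed, where 230 genes had an unadjusted p under 0.05 and DESeq2 called 2 genes, neither of them a member. The median log2 fold change over all genes was 0.00. None of the members had an unadjusted p under 0.05, and the smallest was that of Cx3cl1, at 0.211 by edgeR, with a log2 fold change of -0.39 (SE 0.295) and an adjusted p of 1.00. Il15 had a log2 fold change of -0.32 (SE 0.267), with 5 of 6 PBMT mice below the control median and an exact permutation p of 0.301. Of the 6 tested members, 0 had groups without overlap, against 0.0274% of genes tested. For the members too low to measure, exact permutation gave p = 0.619 for Il6, 0.742 for Lif, 0.229 for Gdf15 and 1 for Fgf21.

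Fatigued muscle was compared with sedentary muscle in a fit of all 24 mice, first without PBMT. Metrnl alone of the measured members was called, and Il15 lay just short of the threshold. Of the 6 members, 1 was called higher, against 9.84% of the 15108 genes tested, and 0 were called lower, against 8.61%, so that 1 of 6 was called in either direction beside 18.5% of all genes. At an unadjusted p under 0.05 edgeR gave 2 members higher, Metrnl and Fst, and 2 lower, Il15 and Fndc5, beside 4817 of all genes in either direction, and DESeq2 called 2 members in either direction and 3209 genes in all. Over all genes, 1487 were higher and 1301 lower, and with offsets for transcript length and GC content 1070 were higher and 1471 lower. Groups without overlap made up 7.82% of genes tested and 0 of the 6 tested members.

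Metrnl had a log2 fold change of 0.65 (SE 0.226) and an adjusted p of 0.0439, with 6 of 6 fatigued mice above the sedentary control median (exact permutation p = 0.0108). The call lay close to the threshold. It was lost with no filter (adjusted p = 0.0605) and with mouse number as a block (0.0531), and it was lost without fatigued control mouse 1 (0.0814), 5 (0.150, log2 fold change 0.47) or 6 (0.0850) and without sedentary control mouse 1 (0.0750), 2 (0.0987), 3 (0.0671), 5 (0.0904) or 6 (0.0998). Across all settings and left-out mice the adjusted p ran from 0.00301 to 0.150.

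Il15 was lower in the same comparison, with a log2 fold change of -0.61 (SE 0.219), an adjusted p of 0.0512 and 6 of 6 fatigued mice below the sedentary control median. Its exact permutation p was 0.0281. The adjusted p passed the threshold with DESeq2 (0.0315), with its size factors (0.0482), with 10 counts asked of every mouse (0.0443), with length and GC offsets (0.0242) and with mouse number as a block without (0.0444) or with (0.0215) those offsets. It also passed without the 2 farthest mice (0.0203), without fatigued control mouse 2 (0.0223) or 5 (0.0189) and without sedentary control mouse 4 (0.0271) or 6 (0.0499), and over all settings and left-out mice it ran from 0.0189 to 0.103.

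Fst and Fndc5 were not called without PBMT. Fst had a log2 fold change of 0.66 (SE 0.282, adjusted p = 0.103; exact permutation p = 0.0303), and without fatigued control mouse 4 the log2 fold change was 0.81 and the adjusted p 0.0390. Fndc5 had a log2 fold change of -0.19 (SE 0.0833, adjusted p = 0.119; exact permutation p = 0.0173), with 6 of 6 fatigued mice below the sedentary median, and its adjusted p was 0.0363 with length and GC offsets, or 0.0283 with mouse number as a block as well. The remaining measured members, Cx3cl1 at 0.39 (SE 0.283) and Bdnf at 0.15 (SE 0.459), had adjusted p-values of 0.36 and 0.854, and without fatigued control mouse 5 the value of Bdnf turned to -0.70 (adjusted p = 0.182). Exact permutation of the members too low to measure gave p = 0.5 for Il6, 0.171 for Lif, 0.511 for Gdf15 and 1 for Fgf21.

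After PBMT, Il15 was the member that differed between fatigued and sedentary muscle: it fell by a log2 fold change of 0.86 (SE 0.221, adjusted p = 0.00522). All 6 fatigued PBMT mice were below the sedentary PBMT median and 5 were below its lowest mouse (exact permutation p = 0.00433, where 0.00216 is the smallest that 924 arrangements allow). The call held in each setting tried and without any 1 mouse, with adjusted p-values from 0.000967 to 0.0141 and log2 fold changes from -0.79 to -1.0. Of the 6 members, 0 were called higher, against 14.6% of genes tested, and 1 lower, against 11.8%, which is 1 of 6 in either direction beside 26.4%. At an unadjusted p under 0.05 edgeR gave 0 members higher and 1 lower, beside 5652 of all genes in either direction, and DESeq2 called Il15 alone of the members and 4334 genes in all. Over all genes, 2199 were higher and 1786 lower, and 1633 and 2226 with length and GC offsets. Groups without overlap made up 11% of genes tested and 0 of the 6 tested members.

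The other members were not called after PBMT. Metrnl had a log2 fold change of 0.46 (SE 0.223, adjusted p = 0.134) and 0.16 without the 2 farthest mice. Fst had 0.53 (SE 0.279, adjusted p = 0.163) and 0.14 without them, although 6 of 6 fatigued PBMT mice were above the sedentary PBMT median. Bdnf at 0.11 (SE 0.462), Cx3cl1 at -0.13 (SE 0.284) and Fndc5 at -0.00 (SE 0.0832) were nearer to 0. Gdf15, which had 1 to 4 counts in each fatigued PBMT mouse and 4 counts in all in sedentary PBMT mice, gave an exact permutation p of 0.0195, not adjusted, at levels at or near the floor of 3 counts. With edgeR and no filter its adjusted p was 0.353. Exact permutation gave p = 0.587 for Il6 and 0.455 for Lif, and edgeR with no filter gave Il6 a log2 fold change of 2.90 (unadjusted p = 0.0459, adjusted p = 0.205) with mouse 5 included.

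**Figure D3:**
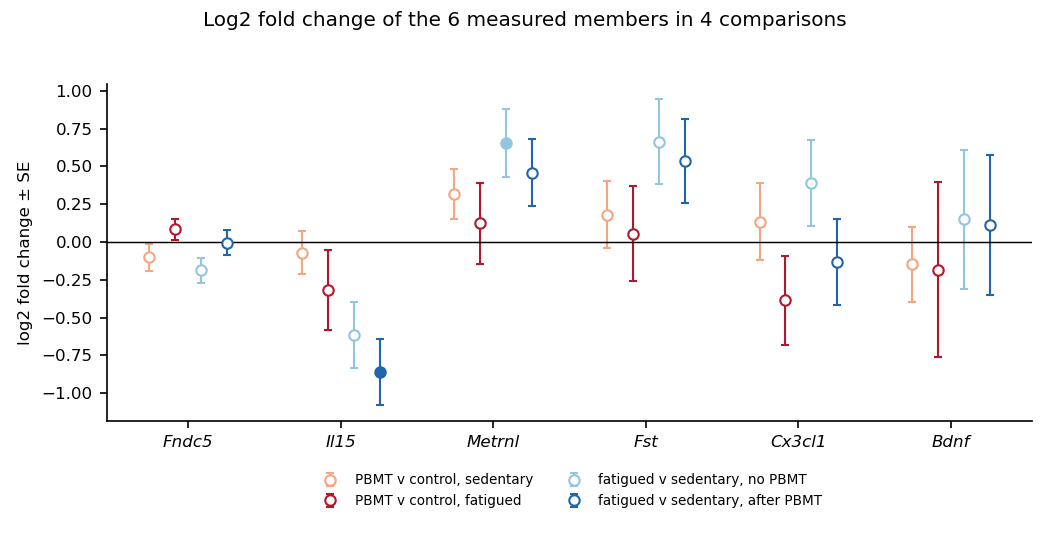
Log2 fold change with its SE (vertical axis) of the 6 measured members in 4 comparisons, PBMT against control in sedentary and in fatigued muscle and fatigued against sedentary muscle without and after PBMT, with filled points where the adjusted p was under 0.05. The filled points are Metrnl without PBMT (0.65) and Il15 after PBMT (-0.86).

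Averaged over control and PBMT mice, a contrast added after seeing the data, Il15 fell by a log2 fold change of 0.74 (SE 0.155, adjusted p = 0.000530), while Metrnl rose by 0.56 (SE 0.159, 0.00686) and Fst by 0.60 (SE 0.198, 0.0184). Il15 fell by 0.85 (0.000127) and Metrnl rose by 0.46 (0.00484) without the 2 farthest mice, and the call of Fst was lost (0.36, adjusted p = 0.0735). Fndc5 (-0.10), Bdnf (0.13) and Cx3cl1 (0.13) were not called. Over all genes the averaged contrast called 5989 of 15108, more than either comparison alone, with the other counts given below under the dependence on processing. Calls of members in it are therefore not read as particular to them. The comparisons of fatigued with sedentary muscle and those of PBMT with control use the same 24 mice, so the calls above are not independent of each other.

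Whether PBMT acted differently in fatigued and in sedentary muscle was tested as the difference of the PBMT effects, in which a shift common to a whole project cancels. None of the 6 members passed by edgeR (0 at an unadjusted p under 0.05, or 1 without the 2 farthest mice, beside 649 of all genes, and 0 with DESeq2), against 0.00662% of the 15108 genes tested, which is Nfil3 alone. Cx3cl1 had a difference of -0.52 (SE 0.401), Il15 of -0.25 (SE 0.309), Metrnl of -0.20 (SE 0.317), Fndc5 of 0.18 (SE 0.118), Fst of -0.13 (SE 0.396) and Bdnf of -0.04 (SE 0.652), with adjusted p-values from 0.945 to 0.997. The median over the 6 members was -0.16, and -0.37 without the 2 farthest mice. In that fit 0 members were called, and the 1 member with an unadjusted p under 0.05 was lower. Il15 was called only after PBMT and Metrnl only without it, but the test of the difference between treated and untreated mice did not pass for either.

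The receptors to which the members bind were measured in the same libraries. Of 18 receptor genes, 15 were tested between fatigued and sedentary muscle: without PBMT 5 rose and 1 fell (median log2 fold change -0.03), and after PBMT 4 rose and 2 fell (median 0.11), where the median over all genes was 0.00 and 0.01. Over all genes tested, 9.84% were called higher and 8.61% lower without PBMT, and 14.6% and 11.8% after it, shares that also stand beside the lists below. Without the 2 farthest mice the counts were 4 and 1 (median 0.07), then 4 and 2 (median 0.07). Il6ra, which binds Il6, had lowest, median and highest levels of 5.29, 6.30 and 8.14 CPM in sedentary control and 8.43, 13.3 and 17.4 CPM in fatigued control mice. It held 3.03, 5.00 and 5.39 CPM in sedentary PBMT and 8.97, 11.9 and 18.6 CPM in fatigued PBMT mice. Every fatigued mouse was above every sedentary mouse of the same treatment, and Il6ra rose by a log2 fold change of 1.00 (SE 0.191, adjusted p = 0.000733) without PBMT and by 1.54 (3.37e-06) after it. Ret, through which the receptor of Gdf15 signals, rose by 0.98 (SE 0.151, adjusted p = 6.2e-05) and by 1.24 (1.69e-06), again with no overlap. Its binding partner Gfral had 0 counts in each of the 24 mice, and Klb had 0 to 4. Il6st, the chain shared by Il6 and Lif, rose by 0.22 (adjusted p = 0.0457, close to the threshold) without PBMT. After PBMT Il6st had 0.06 (0.603) and was not called. In the difference of PBMT effects 0 of 15 receptors were called by edgeR, with Il6ra at 0.54 (SE 0.270, adjusted p = 0.945).

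Among the other receptors, Ntrk2, which binds Bdnf, rose by a log2 fold change of 0.73 (SE 0.197, adjusted p = 0.0110) without PBMT and by 0.97 (0.000712) after it, where the call without PBMT was lost with mouse number as a block and length and GC offsets (0.0683). Acvr2b, the receptor for myostatin and activins that Fst keeps from their ligands, fell by 0.66 (SE 0.156, adjusted p = 0.00420) and by 1.05 (2.19e-05). Lifr rose by 0.31 (adjusted p = 0.0286) and by 0.33 (0.0142), but the call without PBMT was lost with length and GC offsets (0.0634) and without fatigued control mouse 1, 2 or 4 or sedentary control mouse 1, 3, 4 or 5 (0.0522 to 0.0981), and the call after PBMT without fatigued PBMT mouse 4 (0.0502). Il15ra stood at 9.67 CPM (SD 1.82) in sedentary control, 10.2 (SD 1.07) in sedentary PBMT, 9.37 (SD 1.82) in fatigued control and 9.35 CPM (SD 1.93) in fatigued PBMT mice, and its log2 fold changes of -0.04 and -0.12 were not called. Cx3cr1 had group means of 0.121 to 0.203 CPM. Between PBMT and control, 0 of 14 receptors passed by edgeR or DESeq2 in sedentary muscle (median -0.02; 2 at an unadjusted p under 0.05 by edgeR) and 0 of 14 in fatigued muscle (median 0.02; 0 unadjusted).

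Targets of the Il6 and Lif pathway were read from 11 genes of the response to Stat3, the transcription factor that Il6st activates. Without PBMT 6 rose in fatigued muscle and none fell by edgeR (median log2 fold change 0.80), and after PBMT 10 rose and none fell (median 1.12). DESeq2 called 8 higher and 1 lower without PBMT, and 10 higher and 0 lower after it, while length and GC offsets left 4 higher and 1 lower, then 7 and 0. Without the 2 farthest mice 8 rose, then 9. Stat3 itself had a mean of 47.0 CPM (SD 4.10) in sedentary control and 81.6 CPM (SD 9.83) in fatigued control mice, and of 43.9 (SD 1.78) and 95.6 CPM (SD 9.03) in the PBMT groups, with no overlap in either pair. It rose by 0.80 (adjusted p = 1.38e-07) and by 1.12 (2.41e-10), and Pim1, a kinase induced by Stat3, by 1.20 (4.87e-08) and 1.09 (3.57e-08). Socs3, the feedback inhibitor of Il6st, had a log2 fold change of 1.33 (adjusted p = 0.0633) without PBMT and rose by 2.39 (0.00115) after it. Mouse 5 was the highest of its group for Socs3 in both fatigued groups, at 16.8 and 30.7 CPM, against medians of 3.52 and 11.1 CPM. Between PBMT and control in fatigued muscle, 0 of the 11 genes were called by edgeR or DESeq2 (median 0.38). At an unadjusted p under 0.05 by edgeR, 4 of the 11 were higher, or 2 without the 2 farthest mice, and 0 lower, beside 230 of all 14574 genes tested. In sedentary muscle 0 were called by either tool (median -0.05, with 1 higher and 1 lower unadjusted; median 0.12, with 2 higher and 1 lower, without the 2 farthest mice), and in the difference of PBMT effects 0 (median 0.36, with 2 higher and 0 lower unadjusted, beside 649 of all genes).

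The integrated stress response, known to drive Gdf15 and Fgf21, was read from 14 tested genes. In fatigued muscle 4 rose and 1 fell without PBMT (median log2 fold change 0.37), and 5 rose and none fell after it by edgeR (median 0.23; DESeq2 6 and 0; 6 and 0 unadjusted). Without the 2 farthest mice the counts were 5 and 1, then 5 and 0. Asns, which makes asparagine, rose by 0.91 (adjusted p = 0.00478) and by 1.07 (0.00066), from means of 0.813 and 0.814 CPM in the sedentary control and PBMT groups to 1.53 and 1.71 CPM. Ppp1r15a, which ends the response by restoring translation, rose by 0.83 (0.000741) and by 0.92 (0.000168). Ddit3, a transcription factor of the same response, rose by 0.69 (0.0120) and by 0.66 (0.0110). Gdf15 and Fgf21 themselves stayed too low to measure, as given above.

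Fndc5 is known as a target of Ppargc1a, the coactivator of mitochondrial genes. Ppargc1a had a mean of 37.2 CPM (SD 5.13) in sedentary control and 161 CPM (SD 72.9) in fatigued control mice, and of 45.3 (SD 12.1) and 188 CPM (SD 85.8) in the PBMT groups. It rose by a log2 fold change of 2.11 (adjusted p = 0.000213) without PBMT and by 2.05 (0.000157) after it, beside values of -0.19 and -0.00 for Fndc5. Of 10 genes of this program, 1 rose and 3 fell without PBMT (median -0.15), and 3 rose and 2 fell after it (median -0.12). Without the 2 farthest mice 1 rose and 2 fell, then 3 rose and 2 fell, and with length and GC offsets 1 rose and 4 fell, then 3 rose and 4 fell. Tfam, which maintains mitochondrial DNA, fell by 0.21 (0.00275) and by 0.27 (0.000212).

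Early response genes of acute exercise marked the fatigued muscle: 14 of 21 rose and none fell by edgeR both without PBMT (median log2 fold change 1.64) and after it (median 1.97). DESeq2 called 15 higher without PBMT and 14 after it, with 0 lower, and none was lower at an unadjusted p under 0.05. Without the 2 farthest mice 14 rose, then 13, and 1 was lower unadjusted after PBMT. Atf3, a stress-induced transcription factor, went from a mean of 5.51 CPM (SD 1.86) to 107 CPM (SD 69.8) without PBMT and from 3.94 (SD 1.71) to 127 CPM (SD 63.1) after it. Its log2 fold changes were 4.29 (adjusted p = 5.59e-07) and 5.01 (3.57e-08), with every fatigued mouse above every sedentary mouse. Nr4a3, an exercise-responsive nuclear receptor, rose by 4.76 (4.33e-05) and by 3.95 (9.96e-05), and Hspa1a, a heat shock protein, by 4.52 (0.000167) and 4.01 (0.00024). In these same mice, Il6 had 0 to 4 counts outside mouse 5.

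Of 34 other genes of muscle-secreted factors, 27 were tested. Without PBMT 7 rose and 1 fell (median log2 fold change 0.58), and after it 12 rose and 1 fell (median 0.54). Angptl4, an inhibitor of lipoprotein lipase, rose by 1.66 (adjusted p = 0.000418) and 1.57 (0.000361), with fatigued means of 6.08 and 6.58 CPM over sedentary means of 1.92 and 2.21 CPM. Erfe, or myonectin, which acts on liver hepcidin, rose by 1.99 (0.000459) and 2.05 (0.000211). Inhbb, a subunit of activin B that Fst can bind, rose by 1.37 (0.00315) and 1.23 (0.00426), and Fstl3, which resembles Fst, by 0.89 (0.00757) and 0.94 (0.00325). Mstn, the myostatin that Fst blocks, had log2 fold changes of 0.64 (0.0728) and 0.61 (0.0675) and was not called. In the comparisons of PBMT with control, 0 of 23 such genes in sedentary muscle (median 0.10) were called by edgeR, with 1 at an unadjusted p under 0.05 and 1 called by DESeq2. In fatigued muscle 0 of 27 were called (median 0.11), with 2 unadjusted and 0 by DESeq2. The difference of PBMT effects was called by edgeR for 0 of 27 (median 0.05; 0 higher and 1 lower unadjusted). When the 2 farthest mice were left out, 8 rose and 2 fell without PBMT (median 0.50) and 9 rose and 1 fell after it (median 0.31), and in fatigued muscle the median of PBMT against control turned to -0.07, with 0 unadjusted.

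Markers of other cell types moved with the groups, and their part in the levels of Il15, Metrnl and the other members was not tested. In bulk tissue, fewer cells of a type and less RNA per cell cannot be told apart. Of 7 neutrophil markers, led by S100a9, 6 were tested, and 6 fell without PBMT (median log2 fold change -4.73) and 5 after it (median -4.26). Their summed level was 22.6 to 51.5 CPM in sedentary control mice and 0.324 to 3.99 CPM in fatigued control mice, and Ly6g had 0 counts in all 6 of the latter. Sedentary PBMT mice held 1.36 to 54.7 CPM and fatigued PBMT mice 0.791 to 2.73 CPM. Sedentary PBMT mice 1 and 2 lay low at 1.36 and 4.65 CPM, while the other 4 were at 26.5 CPM or more. None of the neutrophil markers was at 0 in all 24 mice.

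Macrophage markers, led by Mrc1, summed to 28.2, 42.2 and 68.1 CPM as lowest, median and highest in sedentary control mice, and to 20.4, 26.2 and 37.6 CPM in sedentary PBMT mice. Fatigued control mice held 43.6, 55.7 and 82.0 CPM and fatigued PBMT mice 33.4, 56.4 and 122 CPM, the highest being mouse 5. Of the 8 markers, 0 rose without PBMT by edgeR or DESeq2 (median log2 fold change 0.44; 1 unadjusted), and 7 rose after it (median 1.11), or 4 without the 2 farthest mice. The difference of PBMT effects was called by edgeR for 0 of the 8 (median 0.77; 2 higher and 0 lower unadjusted, beside 649 of all genes). Between PBMT and control in sedentary muscle edgeR called 0 of 8 (median -0.62), with 4 lower at an unadjusted p under 0.05 and 1 called lower by DESeq2. Over all 14177 genes tested there, 1082 had an unadjusted p under 0.05 by edgeR, in either direction. Without the 2 farthest mice edgeR again called 0 of the 8 macrophage markers in sedentary muscle (median -0.76), with 7 lower unadjusted. Markers of interstitial mesenchymal cells, led by Col3a1, summed to 458, 654 and 769 CPM in sedentary control and 730, 1060 and 1312 CPM in fatigued control mice. In sedentary PBMT mice they held 375, 430 and 780 CPM, and in fatigued PBMT mice 684, 1016 and 2774 CPM, again with mouse 5 the highest. Of these 8 markers, 1 rose without PBMT (median 0.53; 4 without the 2 farthest mice) and 6 rose after it (median 0.93). For 0 of them was the difference of PBMT effects called by edgeR (median 0.42; 1 higher and 0 lower unadjusted).

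How each measured member varied from mouse to mouse was described by its 2 nearest genes among 15107, by Pearson correlation of log2 CPM over the 24 mice after each group's mean was taken off. The nearest to Metrnl were Sele (r = 0.91, and 0.79 without the 2 mice in which Metrnl lay farthest from its median, as for each member here) and Rasa3 (0.89, and 0.77). Bdnf lay nearest to Kdr (0.89, and 0.85) and Snai3 (0.87, and 0.85), and Fst to Col8a1 (0.87, and 0.82) and Itgbl1 (0.86, and 0.72). Fndc5 lay nearest to Mb (0.86, and 0.73) and Msra (0.81, and 0.74), Il15 to Tspan4 (0.82, and 0.71) and Ly6a (0.78, and 0.68), and Cx3cl1 to Slc15a3 (0.82, and 0.79) and Tspan17 (0.76, and 0.68). Kdr also belongs to the endothelial marker list and Ly6a to the interstitial mesenchymal list, and the part of those cells in these values was not tested. Among the members, Metrnl had the same r of 0.60 with Fst and with Bdnf, and without sedentary control mouse 4 and fatigued PBMT mouse 5 these were 0.50 and 0.61. The mice share 2 projects and the mouse 5 values given above, and these genes were the highest of many, so the values are a description.

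Promoters are shown for Metrnl, the member called without PBMT, and for Il6 and Lif, whose counts were highest in the same mouse. The RefSeq promoter table (GRCm38.p6, 300 bases each) holds 15 entries for 8 of the 10 members. Each sequence runs 5′ to 3′ on the strand of the gene, and capitals mark matches, on either strand, to the AP-1 motif TGANTCA, the CRE motif TGACGTCA, the STAT motif TTCNNNGAA, the CARE motif TGATGNAA or the NF-kB motif. Il6 (chr5:30012864-30013163, plus strand) and Lif (chr11:4257318-4257617, plus strand) each hold 1 AP-1 and 1 NF-kB match, and Metrnl (chr11:121702177-121702476, plus strand) holds none. The windows of Il6 and Lif span the gene starts given above. That of Metrnl lies inside its gene, downstream of the start at 121701544, so it does not cover the sequence upstream of that start. Of all 32851 promoters in the table, 7.81% hold the AP-1 motif, 1.79% CRE, 8.3% STAT, 3.97% CARE and 8.46% NF-kB. Among the other members, Fgf21 holds 1 CARE match, Fndc5 1 NF-kB match, 4 of 7 Bdnf entries 1 match each, and Gdf15 and Cx3cl1 none. A match describes letters in the window and does not show that a factor binds there.
Il6: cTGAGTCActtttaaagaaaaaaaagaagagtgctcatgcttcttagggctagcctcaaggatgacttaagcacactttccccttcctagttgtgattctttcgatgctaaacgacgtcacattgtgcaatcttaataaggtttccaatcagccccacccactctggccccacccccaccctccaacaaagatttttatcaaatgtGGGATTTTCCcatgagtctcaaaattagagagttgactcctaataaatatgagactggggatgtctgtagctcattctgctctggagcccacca
Lif: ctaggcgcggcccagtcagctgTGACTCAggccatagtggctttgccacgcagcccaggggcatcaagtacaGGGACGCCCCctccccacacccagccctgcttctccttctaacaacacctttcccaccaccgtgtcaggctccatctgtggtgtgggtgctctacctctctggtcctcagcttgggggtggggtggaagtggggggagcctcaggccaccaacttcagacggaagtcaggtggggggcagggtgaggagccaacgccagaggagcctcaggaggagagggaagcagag
Metrnl: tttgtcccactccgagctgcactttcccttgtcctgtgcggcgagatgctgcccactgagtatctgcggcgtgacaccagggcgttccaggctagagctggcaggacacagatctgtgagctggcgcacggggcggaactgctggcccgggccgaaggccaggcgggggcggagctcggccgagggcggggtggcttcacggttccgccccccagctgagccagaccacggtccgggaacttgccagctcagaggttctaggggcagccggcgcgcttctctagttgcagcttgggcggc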

How the data were processed

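RNA from the left tibialis anterior of 24 mice was analysed in 4 groups of 6. The authors deposited raw counts, as integers by gene and by mouse, without normalization. The submitters' processing notes name Trimmomatic, STAR 2.7.1a, Picard 2.20.4, HTSeq, featureCounts 1.6.0 and StringTie 2.0.4 on GRCm38, without saying which of the counters made the deposited values or with which strand setting. Of 55487 Ensembl identifiers, 55227 matched GENCODE M21, which gave symbols, coordinates and exon lengths, and all 10 members matched. No pair of libraries within a group held the same counts up to sampling noise.

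Genes were tested in R 4.3.3 with edgeR 4.0.16 (TMM scaling, filterByExpr with a minimum count of 10, robust quasi-likelihood F tests, two-sided, p-values adjusted over every tested gene by Benjamini and Hochberg, threshold 0.05). PBMT was compared with control within each project, and the comparisons of fatigued with sedentary muscle and the difference of PBMT effects were fitted on all 24 mice. CPM used TMM-scaled totals, with a prior count of 2 for log2 values. Each member was also tested by exact permutation of mean CPM, 6 mice against 6 (924 arrangements, two-sided, smallest p = 0.00216), with no adjustment, in Python 3.11.15 (numpy 2.4.6, scipy 1.17.1, pandas 2.3.3, matplotlib 3.10.9). The fits were tested on simulated data. Counting floors cover counting error only.

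Alternatives were the size factors of DESeq2, DESeq2 1.42.0, dropping the filter, asking for 10 counts in every sample, offsets for transcript length and GC content (loess, span 0.3), the replicate number as a block with and without those offsets, all 24 mice or only the 2 groups compared, unscaled totals or log2 CPM for permutation, and leaving out each mouse in turn. The fits without the 2 farthest mice and averaged over control and PBMT mice, with and without those 2, were chosen after seeing the data.

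The members and the gene lists (receptors, other secreted factors, Stat3 response, integrated stress response, PGC-1 program, early exercise response and markers of 12 cell types, of which 11 are reported) were chosen with earlier results of these data known. All members are named. From each other list and comparison, at most 6 called genes with the smallest p could be named, or at most 2 where none was called, and from marker lists the most abundant gene and defining markers at 0. The 2 nearest genes of each measured member and its direct receptors or ligands could be named too.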

Additional observations from a re-analysis of the deposited data

Results flagged for a closer look

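In 5 of 24 groups of 6 mice tested for a measured member, and in 7 of 14 for a member too low to measure, 1 mouse lay apart from the others of its group by Dixon's ratio. Chance alone gives about 1 in 20 such groups for normally distributed values. That rate does not apply to groups of mostly 0 counts, such as those of Fgf21, where a single count sets the ratio to 1, and genes measured in the same mouse are not independent. Fatigued PBMT mouse 5 was the highest of its group for Il6 (1.3 CPM, 85 counts), Lif (0.656 CPM, 43 counts), Metrnl (6.72 CPM, 441 counts), Fst (5.86 CPM, 384 counts) and Fgf21 (0.0152 CPM, 1 count). Fatigued control mouse 5 was the highest of its group for Il6 (0.293 CPM, 18 counts) and Bdnf (4.80 CPM, 295 counts). Among fatigued control mice, mouse 3 was the highest for Fgf21 (0.0153 CPM, 1 count), mouse 1 for Gdf15 (0.0876 CPM, 6 counts), and mouse 4 was the lowest for Fst (1.14 CPM, 67 counts). Sedentary control mouse 6 was the highest for Il6 (0.0658 CPM, 3 counts), and sedentary PBMT mouse 6 was the lowest for Fndc5 (86.0 CPM, 4688 counts). The cases of Fgf21 and of Il6 in sedentary control mice rest on 3 counts or fewer.

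Nfil3, a transcription factor outside the members and named after its values were seen, had a PBMT effect that differed between fatigued and sedentary muscle, by 1.11 on the log2 scale (SE 0.164, adjusted p = 0.00566 by edgeR). Its mean was 31.8 CPM in sedentary control, 16.3 in sedentary PBMT, 59.5 in fatigued control and 65.7 CPM in fatigued PBMT mice. With length and GC offsets the difference of Nfil3 was 1.01 with an adjusted p of 0.167.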

How the results depend on the processing

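Members, counts of calls and printed list medians that changed direction or side of the threshold are given here, and the cause was not tested. Genes called between PBMT and control in sedentary muscle numbered 4, and became 60 with DESeq2, 16 with no filter, 16 with length and GC offsets, 1 with all 24 mice in the fit and 18 without the 2 farthest mice. In fatigued muscle 0 became 2 with DESeq2. Between fatigued and sedentary muscle, averaging over control and PBMT mice called 5989 genes in place of 2788 and 3985, and 6533 without the 2 farthest mice, with 2 members. The count of members called without PBMT, 1, became 2 with the size factors of DESeq2, 2 with DESeq2, 0 with no filter, 2 with 10 counts in every sample, 3 with length and GC offsets, 2 without the 2 farthest mice and 3 when averaged, and the count after PBMT, 1, became 3 when averaged. The calls over all genes without PBMT, in the same order, were 2806 of 15108, 3209 of 17170, 2078 of 29970 and 2668 of 12709. They were then 2541 of 15108, 4052 of 15171 and, when averaged, 5989 of 15108. The members are not read as standing out from these shares.

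With the replicate number as a block, genes called became 11 (sedentary) and 1 (fatigued) for PBMT against control, 2494 and 3719 for fatigued against sedentary muscle, and with length and GC offsets as well 13, 1 and, for the difference of PBMT effects, 0, with 3 members called without PBMT beside 2348 of 15108 genes. The adjusted p of Metrnl without PBMT was 0.0531 with the block, and those of Ntrk2 without PBMT and of Nfil3 in the difference were 0.0683 and 0.578 with block and offsets. Signs turned for Bdnf in fatigued muscle (0.0133, and 0.0158 with offsets), without PBMT (-0.0891, -0.0453), after PBMT (-0.107 with the block) and in the difference (0.0699 with both), for Fst in fatigued muscle (-0.0179, -0.0229) and for Fndc5 after PBMT (0.00109). As a check of the pairing, mice with the same number correlated at -0.07 to 0.07 (sedentary), -0.08 to 0.33 (fatigued), -0.13 to 0.03 (control groups) and -0.27 to 0.01 (PBMT groups). Fatigued control mice 1, 3 and 5 correlated best with the fatigued PBMT mouse of their own number, mouse 5 at 0.33, and mice 2, 4 and 6 with another. Whether mice of the same number shared a treadmill session was not tested.

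Other log2 fold changes that turned were Bdnf in the difference with length and GC offsets (0.0863), Cx3cl1 after PBMT when averaged (0.13), and, without the 2 farthest mice, Bdnf in sedentary (0.00674), Metrnl in fatigued (-0.18) and Fst in fatigued muscle (-0.34). Differences of mean CPM that turned without the 2 farthest mice were, for PBMT against control, Il6 (-0.0381), Metrnl (-0.371), Lif (-0.0458) and Fst (-0.539) in fatigued and Bdnf (0.00572) in sedentary muscle, and, after PBMT, Il6 (-0.00602) and Bdnf (-0.00108). On log2 CPM they turned for Fndc5 after PBMT (0.00342), Bdnf in fatigued muscle (0.0196), without PBMT (-0.233) and after PBMT (-0.0756) and Fst in fatigued muscle (-0.0095), and on unscaled totals for Fgf21 in fatigued muscle (0.000285). None of these differences was called. Without the 2 farthest mice the printed list medians that turned were those of the receptors without PBMT (0.07), of the Stat3 response in sedentary muscle (0.12) and of the other secreted factors in fatigued muscle (-0.07).

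Leaving out each mouse in turn gave 2 to 20 genes called in sedentary muscle (20 without PBMT mouse 5, 18 without control mouse 4), 1 to 3 in the difference of PBMT effects and 0 to 2 members called without PBMT, beside 2078 to 3770 of all genes. Log2 fold changes that turned ran, for Bdnf, from -0.44 to 0.66 (fatigued), -0.32 to 0.00674 (sedentary), -0.29 to 0.81 (difference), -0.14 to 0.29 (after PBMT) and -0.70 to 0.32 (without PBMT). They ran for Cx3cl1 from -0.0778 to 0.228 (sedentary) and -0.237 to 0.0702 (after PBMT), for Fndc5 from -0.0826 to 0.0241 (after PBMT), for Fst from -0.34 to 0.14 (fatigued) and -0.519 to 0.0216 (difference), for Il15 from -0.15 to 0.00229 (sedentary) and for Metrnl from -0.18 to 0.30 (fatigued). Of the 56 listed genes called without PBMT, 452 of 494 values under the other settings, averaging aside, kept their direction and call and 42 lost the call, and of the 82 called after PBMT, 653 of 724 and 71, with 0 reversed. Leaving out mice, 555 of 672 and 885 of 984 kept it.

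With 6 mice a group, the spread between mice limits Bdnf and Cx3cl1, counts at or near the floor limit Gdf15 and Fgf21, and Il6 and Lif are limited by low counts in most mice and by the few mice that held most of their counts. Fatigue and sequencing project cannot be told apart, protein was not measured, and levels at the end of a run do not describe later hours.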

Other observations

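Other marker lists were read in the same mice, between fatigued and sedentary muscle without and then after PBMT, by edgeR. Fast fiber markers had 4 of 7 higher (median log2 fold change 0.30) and then 3 (median 0.18). Slow fiber markers, led by Myl3 and summing to 31.1 to 127 CPM, had 1 of 6 lower (median 0.44) and then none called (median 0.85; 0 at an unadjusted p under 0.05 by edgeR, 0 by DESeq2). Endothelial markers, led by Cdh5 and summing to 243 to 439 CPM, had 1 of 7 higher (median 0.18) and then 2 higher and 1 lower (median 0.11). Satellite cell markers, led by Cdh15, had 1 of 7 higher (median 0.34) and then 2 higher and 1 lower (median 0.42).

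Adipocyte markers, led by Fabp4, had none of 7 called without PBMT (median 0.55; 1 unadjusted, 0 by DESeq2) and 1 higher after it (median 0.66; 0 and a median of 0.17 without the 2 farthest mice). Erythrocyte markers, led by Hbb-bs, had none of 5 called in either (medians -0.28 and -0.19; 1 and then 0 unadjusted, 0 by DESeq2). Of 7 keratinocyte markers, led by Trp63, 5 were below the filter, and of the other 2, 1 was higher without PBMT, and 1 higher and 1 lower after it. All 7 markers of T and NK cells were below the filter, with summed levels of 0.0589 to 0.478 CPM. Between PBMT and control none of these lists had a gene called by edgeR in either state. At an unadjusted p under 0.05 there were 2 endothelial and 1 satellite cell markers in sedentary muscle, all higher, and 1 slow fiber marker and Trp63 in fatigued muscle, both higher. Trp63 had a log2 fold change of 0.89 (SE 0.164; edgeR unadjusted p = 8.83e-05, adjusted p = 0.9998) in fatigued muscle. Krt10, the other tested gene of the keratinocyte list, had -0.09 (SE 0.161). DESeq2 called 1 gene of that list higher in fatigued muscle and none of these markers in sedentary muscle. With 5 of its 7 genes below the filter, the list is not read as a measure of keratinocytes.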
